A study of Bos taurus with 8 samples.

Results

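Fibro-adipogenic progenitors (FAPs) grown from bovine muscle were compared between passage 2 and passage 0 of culture in 6 donor animals. The cells were those that carry the deposited cell type label FAPs and the genotype of donor 1, 2, 4, 7, 8 or 9, which is 8281 of the 18557 cells kept in the 2 libraries, with 3332 at passage 0 and 4949 at passage 2. In all 5 libraries of the series, 21409 of 36129 cells were FAPs. The donors were Belgian Blue cattle, and their cells came from the semitendinosus, a hindlimb muscle. The study followed these cells through long culture in a serum-free growth medium that holds PDGF-BB and HGF, with a view to cultured meat. At each timepoint the cells of all donors were mixed and captured as 1 Chromium 3′ v3.1 library, and each cell was later returned to its donor from its genotype. The sample labels give 2 runs for passage 0 and 2 for passage 2. The deposited counts merge them by timepoint, so the runs were not separated. Passage 0 was 72 h after isolation, on fibronectin, before any sorting. At passage 2, donors 1 and 9 (adult females) and donor 2 (a female calf) gave cultures that had never been sorted, on fibronectin. Donors 4 and 7 (female calves) and donor 8 (an adult male) gave cultures on collagen I that had been sorted for FAPs by flow cytometry with antibodies to ITGA5, ITGA7, F11R and PTPRC. Each donor is therefore 1 culture at each passage, and the donor is the replicate. The change from passage 0 to passage 2 and the change of library cannot be told apart.

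FAPs are the fibroblast-like cells of the space between muscle fibres. They carry the PDGF receptor alpha, build much of the collagenous matrix of the muscle, support satellite cells (SCs, the muscle stem cells) with secreted factors, and can turn into adipocytes or myofibroblasts. In adult muscle they divide little, and injury or plating brings them into the cell cycle.

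The compared FAPs carried 78795927 unique molecular identifiers (UMIs) at passage 0 and 149293465 at passage 2, with medians of 23703.5 and 29540 UMIs and of 4412.5 and 4731 genes per cell. A donor gave 452 to 659 FAPs at passage 0 and 704 to 980 at passage 2. The median share of mitochondrial UMIs was 2.93% in both libraries. Barcodes that held cells of more than 1 donor made up 39.4% of the passage 0 barcodes and 19.6% of the passage 2 barcodes and had been set aside, while doublets within a donor cannot be seen in this way. Among the compared FAPs 3 barcodes occurred in both libraries. FAPs were 48.5% to 70.6% of a donor's kept cells at passage 0 and 75.9% to 97.9% at passage 2. The other labelled cells of these donors at passage 0 were 1376 SCs, 661 vascular endothelial cells (VECs), 231 smooth muscle and mesenchymal-like cells (SMMCs), 147 lymphatic endothelial cells (LECs), 87 macrophages and 38 glial cells, and at passage 2 they were 680 SCs.

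UMIs were summed over the FAPs of a donor and passage, and levels are given as counts per 1000000 UMIs of that sum (CPM), with its total scaled by edgeR's TMM factor, which was set anew in each comparison, so that a level can differ slightly between them. Levels in the pooled cells of a type, FAPs included, are CPM over all 9 donors of the library, that is with donors 5, 6 and 10 added to the 6 compared, and with no such factor. Each level is the median of the 6 donors, with the lowest and the highest donor in parentheses. A gene was called where edgeR's quasi-likelihood test, paired by donor, gave an adjusted p under 0.05 (Benjamini-Hochberg) with a log2 fold change over 1 or under -1. In such sums a smaller share of cells with a transcript and less of it per cell cannot be told apart. Of 11439 genes tested, 2705 (23.6%) were called, 1537 higher (13.4%) and 1168 lower (10.2%) at passage 2. The median log2 fold change over all tested genes was 0.04. For 5785 genes (50.6%) the ranges of the 6 donors at both passages did not overlap. Genes named below as higher or lower moved in that direction in 6 of 6 donors and had ranges that did not overlap, unless another count or an overlap is given. Lists of genes are described by how many of their tested members were called and by the median log2 fold change of these members. Each such count is to be read against the 13.4% called higher and 10.2% called lower over all tested genes. A list near these shares shows no more than the tested genes as a whole. Under an alternative the median covers the members still tested there, so it can also move because members dropped out. Where a list has 0 members called in a direction, DESeq2 called none in that direction either: 10 lists with 320 tested members had none higher, with 41 members higher at an unadjusted p below 0.05, and 17 lists with 311 members had none lower, with 44 lower at that p.

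The label was checked against markers, although the authors had named the cells by clustering them on this same expression, so the markers of 1 passage are no independent test. Of 13 FAP markers, 9 were called higher and 0 lower, 11 had a log2 fold change above 0, and the median was 2.89. Their summed level was 5619.6 (5135 to 6053) CPM at passage 0 and 37640.2 (21136 to 57275) CPM at passage 2, lowest in donor 4 and highest in donor 2. PDGFRA, the receptor that defines these cells, stood at 247 CPM (168 to 311) at passage 0 and 349 CPM (213 to 755) at passage 2. It was higher in 4 of 6 donors and was not called (log2 fold change 0.67, SE 0.24, adjusted p = 0.033). ITGA5, the integrin subunit used in the sort, stood at 145 CPM (129 to 165) at passage 0 and 183 CPM (122 to 245) at passage 2, was higher in 5 of 6 donors and was not called either (0.31 on the log2 scale). THY1, a surface glycoprotein of fibroblasts, stood at 24.6 CPM (19.9 to 27.6) at passage 0 and 288 CPM (92.5 to 618) at passage 2 (log2 fold change 3.51, SE 0.36, adjusted p = 6.1e-05). Donor 1 was lowest at passage 2 and donor 8 highest. SCARA5, a ferritin receptor, rose from 2.13 (1.23 to 2.88) to 56.1 (22.9 to 313) (log2 fold change 5.44, SE 0.39, adjusted p = 8.2e-06). The markers ITGB3 and LY6E were not called. In the fit with SCs their FAP medians at passages 0 and 2 were 49.0 and 43.3 CPM for ITGB3 and 2.76 and 2.17 CPM for LY6E. The collagens, DCN, LUM and MFAP5 among these markers are also members of lists below.

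Markers of other cell types moved both ways, with most VEC and macrophage markers lower and the summed SMMC and tenocyte lists higher. Of 10 tested VEC markers 9 were called lower and 1 higher, and their summed level was 47.3 (35.0 to 60.6) CPM at passage 0 and 11.2 (7.57 to 14.6) CPM at passage 2. PECAM1, the endothelial adhesion molecule CD31, had 470 UMIs over all FAPs at passage 0 and 2 at passage 2. F11R, the junctional protein used in the sort, had 101 and 3. VWF, a clotting glycoprotein of endothelium, went the other way, from 2.21 (1.09 to 2.65) to 8.89 (5.05 to 13.2) CPM, a log2 fold change of 2.20 (SE 0.18, adjusted p = 4.7e-06). Of 6 tested macrophage markers 5 were called lower, with a summed level of 40.5 (35.4 to 63.3) CPM at passage 0 and 22.5 (18.5 to 31.2) CPM at passage 2, while PTPRC, the leukocyte antigen CD45, was below the filter and had no UMI at passage 2. CD14, a receptor for bacterial lipopolysaccharide, was not called, at 15.5 CPM (12.6 to 24.5) at passage 0 and 15.4 CPM (12.1 to 19.8) at passage 2. MMRN1, the only tested LEC marker, had 117 UMIs at passage 0 and none at passage 2, which with a floor of 3 counts over the group is at least 73.9-fold lower. The summed SC markers were at 22.8 (21.5 to 30.5) CPM and 20.1 (18.1 to 22.2) CPM, with MYOG and MYOD1 called higher and NCAM1 lower of 7 tested. The summed SMMC list went from 58.8 (46.7 to 79.8) CPM to 740.3 (652 to 1220.3) CPM. Of 5 tested members ACTA2, CNN1 and MYLK were called higher, 0 were called lower and 2 were not called. In the fit with SCs the FAP medians at passages 0 and 2 were 0.586 and 0.0988 CPM for KCNJ8 and 0.451 and 0.394 CPM for MYH11. RGS5, a pericyte gene, had no UMI at either passage. Of 3 tested genes of the tenocyte list, MKX and FMOD were called higher and 0 were called lower. THBS4 was not called, with FAP medians of 13.8 CPM at passage 0 and 9.00 CPM at passage 2 in the fit with SCs. TNMD, a defining tendon gene, had no UMI at passage 0 and stayed below the filter. The summed level of the tenocyte list was 21.0 (15.2 to 24.2) CPM and 215 (134 to 284) CPM. The summed glial markers were at 16.6 (9.44 to 25.3) CPM and 20.6 (12.9 to 35.9) CPM, with no member called, and the muscle fibre genes at 2.74 (2.00 to 3.94) CPM and 11.2 (9.46 to 13.0) CPM, with ACTA1 and TNNC2 called higher and TNNT1 lower. Free RNA or doublets of other cells can carry such genes into FAP sums, and their part in any result below was not tested. As a measure, 538 of the 11439 tested genes (4.70%) had a level at least 10 times as high in another labelled cell type of the passage 0 library, SCs not counted, as in FAPs, with the cells of all 9 donors pooled. Such genes were 137 of the 1168 genes called lower (11.7%) and 199 of the 1537 called higher (12.9%), and they were 32 of the 40 genes (80.0%) called lower with a log2 fold change below -4.

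The 12 leading genes that rose were CLEC12B, STAR, LEP, MSLN, CCL5, IFI27, GPR65, PTGES, EDIL3, RARRES1, XPNPEP2 and ANKRD1. CLEC12B, a C-type lectin receptor, rose from 9 UMIs over all 6 donors to 13146, that is from 0.101 (0 to 0.230) to 74.4 (14.8 to 182) CPM, a log2 fold change of 9.73 (SE 0.18, adjusted p = 1.1e-08). STAR, which carries cholesterol into mitochondria at the start of steroid synthesis, rose from 12 UMIs to 17694 and reached 117 (17.6 to 249) CPM, lowest in the sorted culture of donor 4 and highest in donor 2 (log2 fold change 9.56, SE 0.34, adjusted p = 3.2e-07). LEP, the adipocyte hormone leptin, rose from 4 UMIs to 2706 and lay within a narrow range of 19.5 (13.3 to 23.3) CPM at passage 2 (log2 fold change 8.49, SE 0.24, adjusted p = 5.2e-08). MSLN, a surface glycoprotein of mesothelium, rose from 5 UMIs to 2439, and GPR65, a proton-sensing receptor, from 6 to 1747. PTGES, which makes prostaglandin E2 from its precursor, rose from 0.427 (0.306 to 0.814) to 35.9 (25.8 to 96.0) CPM, a log2 fold change of 6.71 (SE 0.23, adjusted p = 1.8e-07). The retinoid-responsive gene RARRES1 rose from 2.15 (1.32 to 3.55) to 150.0 (90.5 to 311) CPM. The integrin ligand EDIL3 rose from 0.305 (0.0904 to 0.401) to 24.1 (9.04 to 48.0) CPM. XPNPEP2, a membrane-bound aminopeptidase, rose from 0.668 (0.181 to 1.50) to 62.0 (29.4 to 80.4) CPM. The rule that picked the leading genes required the same direction in 6 of 6 donors. That no donor crossed between the passages in the plot is therefore no separate result.

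**Figure D1:**
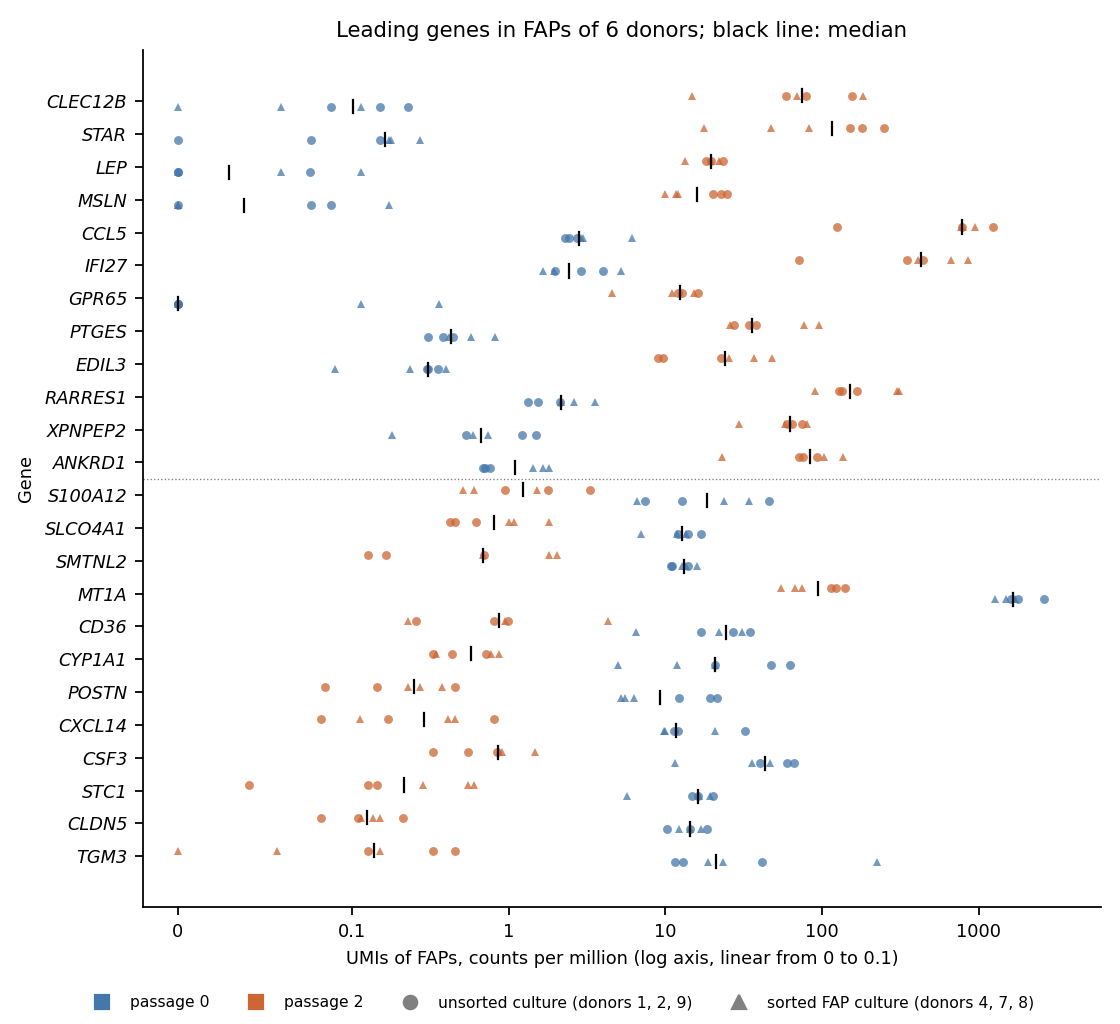
Level of the 12 leading genes in each direction (vertical axis) in the FAPs of each donor, in CPM (horizontal log axis, linear between 0 and 0.1), with passage 0 in blue, passage 2 in orange, circles for unsorted cultures, triangles for sorted cultures and black lines for medians. Above the dotted line all passage 2 points lie to the right of the passage 0 points, and below it all lie to the left, as for MT1A with medians of 1659 and 93.6.

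The 12 leading genes that fell were TGM3, CLDN5, STC1, CSF3, CXCL14, POSTN, CYP1A1, CD36, MT1A, SMTNL2, SLCO4A1 and S100A12. MT1A, which binds zinc and copper, fell from 1659 (1265 to 2590.3) to 93.6 (54.5 to 141) CPM, a log2 fold change of -4.23 (SE 0.18, adjusted p = 4.9e-07). CSF3, the neutrophil growth factor G-CSF, fell from 43.3 (11.6 to 66.6) to 0.853 (0.330 to 1.47) CPM, a log2 fold change of -5.62 (SE 0.39, adjusted p = 6.9e-06). CXCL14, a chemokine of stroma, fell from 11.7 (9.76 to 32.4) to 0.290 (0.0824 to 0.801) CPM, and at passage 0 it was at 14.0 in pooled FAPs against 2914 in glial cells. CYP1A1, a target of the aryl hydrocarbon receptor, fell from 20.7 (4.97 to 62.4) to 0.579 (0.330 to 0.868) CPM with its highest passage 0 level in donor 1. Several of these genes had a higher level in another cell type at passage 0. CLDN5, a tight junction protein of endothelium, fell from 14.4 (10.2 to 18.3) to 0.126 (0.0824 to 0.212) CPM, a log2 fold change of -6.68 (SE 0.13, adjusted p = 1.1e-08), and its level in CPM at passage 0 was 13.1 in pooled FAPs, 1564 in VECs and 2444 in LECs. TGM3, a transglutaminase, fell from 21.0 (11.6 to 225) to 0.139 (0 to 0.453) CPM, with donor 4 highest at passage 0, and was at 63.2 in pooled FAPs against 1224 in SMMCs. POSTN, the matrix protein periostin, fell from 9.30 (5.21 to 21.3) to 0.251 (0.0848 to 0.453) CPM and was at 9.75 against 153 in SMMCs. The hormone gene STC1 (log2 fold change -5.67) was at 11.7 against 379 in LECs, the fatty acid receptor CD36 (-4.44) at 20.1 against 230.4 in macrophages, and the granulocyte protein S100A12 (-3.70) at 18.5 against 3372 in macrophages. SLCO4A1, an organic anion transporter, fell from 12.8 (6.98 to 16.8) to 0.812 (0.424 to 1.81) CPM. SMTNL2, a smoothelin-like gene, fell from 13.1 (10.9 to 15.9) to 0.689 (0.127 to 2.04) CPM. For the genes that were higher in another cell type the share of the fall that lies in FAPs themselves was not tested.

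**Figure D2:**
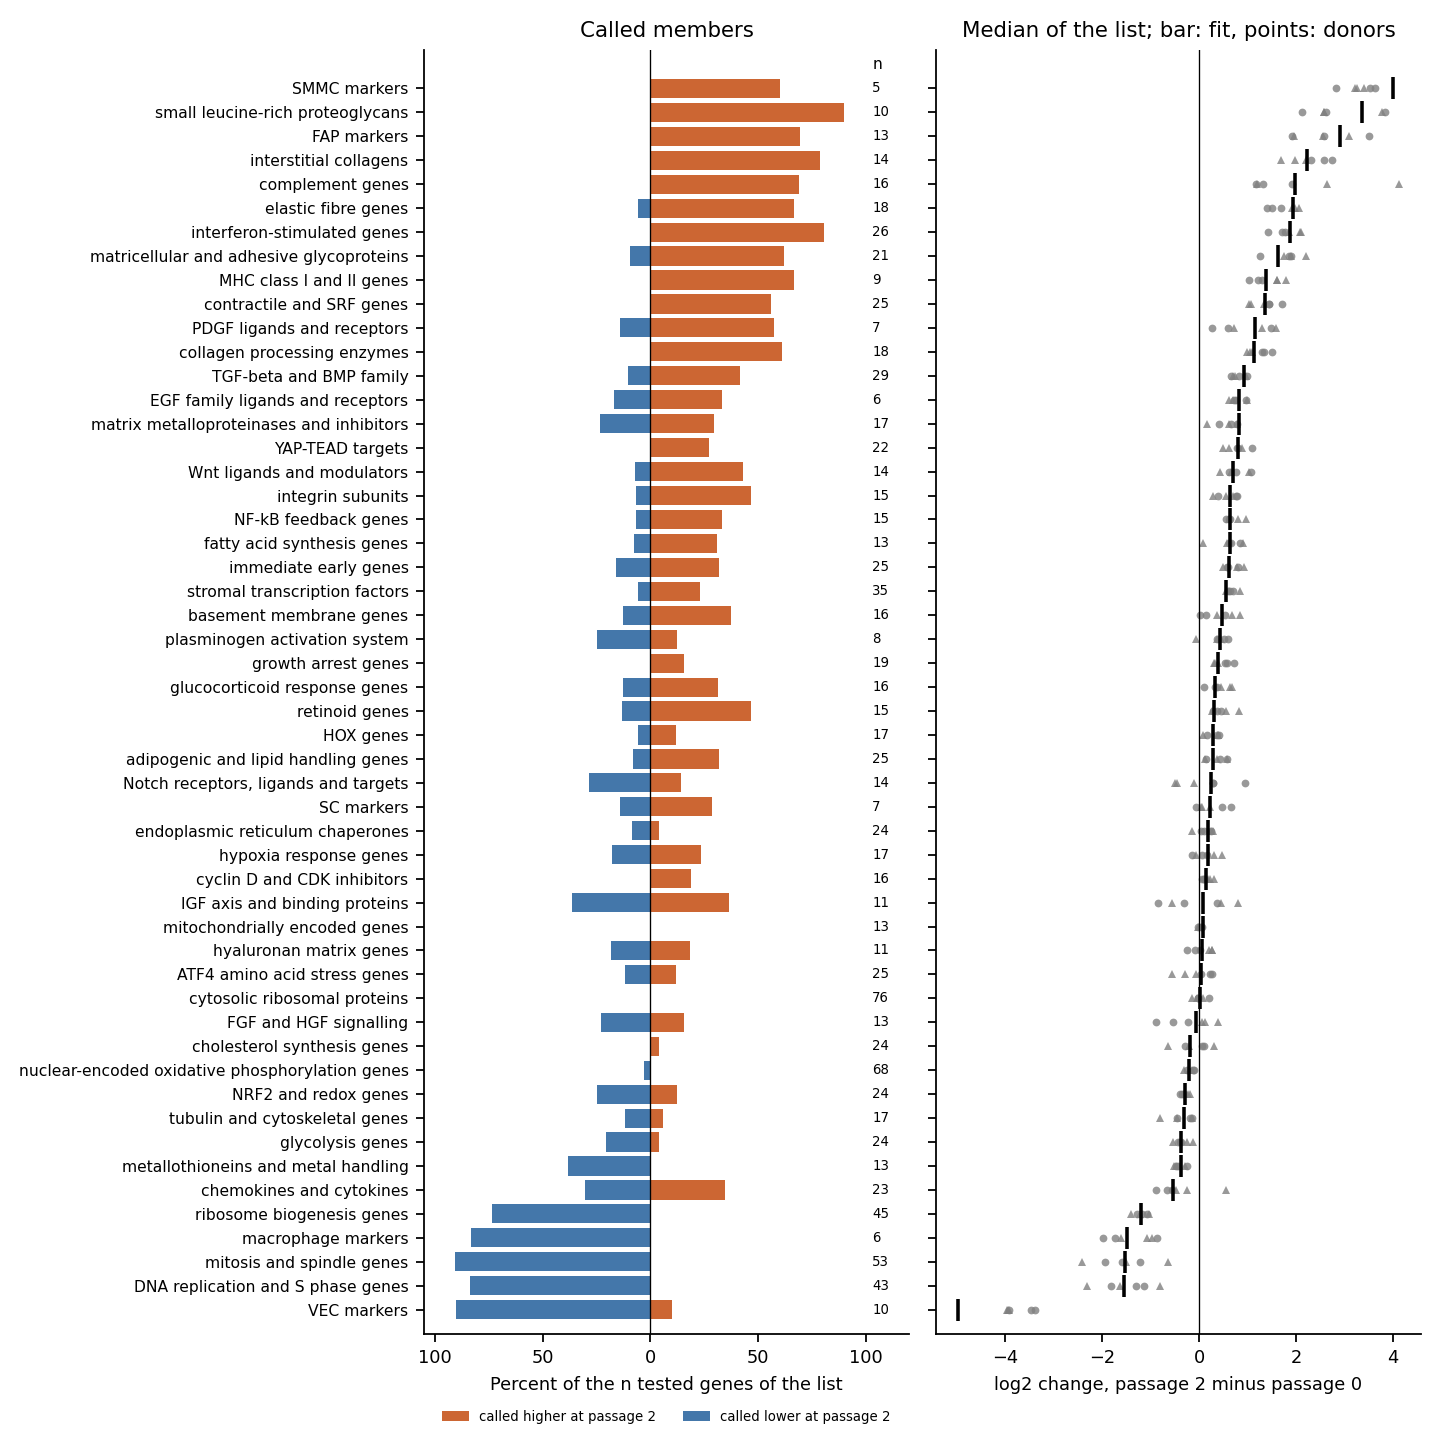
Left, percent of the n tested genes of each list (vertical axis) that were called higher (orange) or lower (blue) at passage 2. Right, median log2 change of the list, with the fit as a black bar and the medians of each donor's own changes, computed with a prior count of 2, as points (circles for unsorted and triangles for sorted cultures); the interstitial collagen, proteoglycan, complement and interferon lists lie to the right and the replication and mitosis lists to the left in all 6 donors.

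Most interstitial collagen genes rose. Of 14 tested interstitial collagen genes 11 were called higher and 0 lower, with a median log2 fold change of 2.23, and their summed level went from 2732 (2125 to 3295) to 24502 (12841 to 44539) CPM. COL1A1, which with COL1A2 forms type I collagen, rose from 565 (413 to 758) to 9112 (4161 to 16997) CPM, a log2 fold change of 4.04 (SE 0.31, adjusted p = 1.2e-05). The sorted culture of donor 4 was lowest at passage 2 with 4161 CPM and the unsorted culture of donor 2 highest with 16997 CPM. COL1A2 rose from 586 (418 to 717) to 7491 (3567 to 12836) CPM, a log2 fold change of 3.71 (SE 0.28, adjusted p = 1.2e-05). COL3A1, the chain of type III collagen, rose from 968 (714 to 1172) to 6572 (3594 to 12101) CPM, a log2 fold change of 2.89 (SE 0.21, adjusted p = 7.3e-06). COL11A1, a minor fibrillar chain that sets fibril width, had the largest log2 fold change of the list, 5.55, from 1.49 (0.612 to 3.26) to 89.6 (22.6 to 178) CPM.

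Many of the enzymes that modify and cross-link collagen rose too. Of 18 tested, 11 were called higher and 0 lower, with a median log2 fold change of 1.13, and their summed level went from 2974 (2904 to 3115) to 6014 (5327 to 7465) CPM. P4HA3, a prolyl hydroxylase subunit, rose from 5.71 (4.49 to 6.51) to 78.8 (41.2 to 146) CPM, a log2 fold change of 3.80 (SE 0.29, adjusted p = 1.1e-05). Its relative P4HA2 rose from 439 (397 to 577) to 1283 (1042 to 1685) CPM. P4HA1, the subunit that hypoxia induces, had log2 fold change 1.18, and in sorted cultures alone 0.94 and no call. LOX, the lysyl oxidase that starts cross-linking, rose from 11.7 (7.96 to 23.3) to 105 (54.4 to 139.7) CPM, and its relative LOXL4 rose from 1.07 (0.617 to 1.72) to 8.61 (5.51 to 11.002) CPM. PCOLCE, which enhances the cleavage of procollagen, rose from 59.9 (56.6 to 70.6) to 339 (231 to 589) CPM, a log2 fold change of 2.58 (SE 0.14, adjusted p = 1.2e-06). PPIB, a cyclophilin of the endoplasmic reticulum, was higher in 6 of 6 donors but stayed under the fold threshold at log2 fold change 0.91.

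Small leucine-rich proteoglycans, which bind and space collagen fibrils, were called higher for 9 of 10 tested members, with none lower and a median log2 fold change of 3.37. DCN, decorin, rose from 2765 (2209 to 3067) to 10098 (6417 to 13841) CPM, a log2 fold change of 1.87 (SE 0.10, adjusted p = 5.9e-07). LUM, lumican, rose from 322 (263 to 368) to 3554 (2451 to 3913) CPM with a small spread between donors (log2 fold change 3.43, SE 0.09, adjusted p = 5.2e-08). ASPN, asporin, rose from 0.668 (0.296 to 1.32) to 32.5 (14.6 to 70.3) CPM, a log2 fold change of 5.58 (SE 0.30, adjusted p = 1.5e-06). FMOD, fibromodulin, rose from 7.34 (4.70 to 8.56) to 169.9 (63.6 to 253) CPM. PRELP, which anchors basement membranes to collagen, rose from 7.06 (3.80 to 9.52) to 80.5 (47.5 to 135) CPM. Of elastic fibre genes 12 of 18 tested were called higher and 1 lower, with a median of 1.94. MFAP5, a microfibril protein and a marker of muscle FAPs, rose from 14.6 (8.23 to 18.3) to 172 (100.3 to 611) CPM, a log2 fold change of 3.93 (SE 0.39, adjusted p = 4.7e-05). MFAP2, another microfibril protein, rose from 13.4 (11.7 to 16.6) to 155 (102 to 269) CPM. FBN1, the fibrillin scaffold itself, rose from 454 (379 to 526) to 929 (795 to 1012) CPM, close to the fold threshold at log2 fold change 1.02 and below it at 0.99 with DESeq2 or among G1 cells, at 0.98 without donor 1 and at 0.94 without donor 9. FBLN2, a fibulin, rose from 63.9 (42.2 to 69.7) to 495 (306 to 749) CPM. The exception was MGP, an inhibitor of calcification, which was lower in 6 of 6 donors with overlapping ranges, at 5.18 CPM (1.59 to 9.03) at passage 0 and 0.136 CPM (0.0412 to 1.82) at passage 2 (log2 fold change -3.74, SE 0.61, adjusted p = 7.4e-04).

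Matricellular genes were called higher for 13 of 21 tested members and lower for 2, with a median log2 fold change of 1.62. CCN2, the connective tissue growth factor, rose from 52.0 (33.1 to 146) to 1118 (694 to 1287) CPM, a log2 fold change of 3.97 (SE 0.32, adjusted p = 1.7e-05). SPARC, which helps collagen into fibrils, rose from 604 (477 to 701) to 4108 (2210.1 to 6518) CPM, a log2 fold change of 2.76 (SE 0.19, adjusted p = 6.7e-06). THBS1, an activator of latent TGF-beta, rose from 403 (230.5 to 689) to 2227 (1562 to 2463) CPM. The collagen-binding gene ECM2 rose from 1.19 (0.995 to 2.29) to 41.9 (21.5 to 125) CPM. CCN4, a target of Wnt signalling, rose from 0.542 (0 to 1.45) to 11.6 (9.46 to 13.7) CPM. Basement membrane genes were split, with 6 called higher and 2 lower of 16 tested and a median of 0.46. LAMB2, a laminin chain, rose from 31.3 (24.1 to 33.6) to 101 (74.7 to 129) CPM. COL18A1, the source of endostatin, fell from 27.2 (18.5 to 44.4) to 4.03 (2.71 to 7.98) CPM, a log2 fold change of -2.64 (SE 0.17, adjusted p = 2.4e-06), and was at 34.2 in pooled FAPs against 351 in VECs at passage 0. The main type IV collagen chain COL4A1 was not called, at 509.6 CPM (447 to 602) at passage 0 and 634 CPM (530.1 to 834) at passage 2 with overlapping ranges. Hyaluronan genes showed 2 called higher and 2 lower of 11 tested, against 13.4% and 10.2% of all tested genes. Their median was 0.07, and -0.17 among G1 cells alone. HAS2, which makes hyaluronan, fell from 42.5 (32.7 to 63.9) to 13.3 (11.7 to 20.7) CPM, a log2 fold change of -1.62 (SE 0.22, adjusted p = 2.8e-04). HYAL1, which degrades it, rose from 2.09 (1.68 to 2.35) to 8.09 (5.13 to 11.3) CPM, a log2 fold change of 2.00 (SE 0.15, adjusted p = 3.7e-06). CEMIP, another hyaluronan-degrading protein, rose from 0.124 (0 to 0.265) to 3.41 (0.868 to 5.81) CPM. VCAN, the proteoglycan versican, stood at 564 CPM (408 to 819) at passage 0 and 535 CPM (447 to 602) at passage 2 and was not called.

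Matrix proteases moved both ways. Of metalloproteinases and their inhibitors 5 were called higher and 4 lower of 17 tested, with a median log2 fold change of 0.82. MMP3, stromelysin, fell from 7.50 (5.27 to 17.9) to 0.410 (0.0570 to 1.73) CPM, a log2 fold change of -3.98 (SE 0.33, adjusted p = 1.1e-05). MMP1, the interstitial collagenase, fell from 21.0 (10.5 to 33.2) to 2.08 (1.82 to 10.0) CPM, a log2 fold change of -2.84 (SE 0.52, adjusted p = 0.0015), and in sorted cultures alone it was not called (-1.98, adjusted p = 0.065). MMP9 was lower in 6 of 6 donors with overlapping ranges, at 13.8 CPM (8.96 to 16.7) at passage 0 and 1.82 CPM (0.456 to 11.8) at passage 2, and its level in CPM at passage 0 was 13.8 in pooled FAPs and 9147 in macrophages. Its call was lost among G1 cells alone (-2.31, adjusted p = 0.091) and in sorted cultures alone (-2.47, adjusted p = 0.083). MMP2, a gelatinase, rose from 838 (732 to 945) to 2154 (2022 to 2714) CPM, a log2 fold change of 1.44 (SE 0.09, adjusted p = 1.0e-06). Its inhibitor TIMP2 rose from 239.6 (230.3 to 262) to 947 (494 to 1030.1) CPM. ADAMTS5, an aggrecanase, rose from 9.50 (7.69 to 13.3) to 92.9 (48.3 to 109) CPM. In the plasminogen system 1 gene was called higher and 2 lower of 8 tested, against 13.4% and 10.2% of all tested genes. The median was 0.43. SERPINF2, the antiplasmin gene, rose from 6 UMIs to 912 and to 6.42 (2.83 to 12.5) CPM. SERPINE2, protease nexin, was lower in 6 of 6 donors with overlapping ranges, at log2 fold change -1.09, which was -0.97 and no call without donor 2.

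Most complement genes rose. Of 16 tested, 11 were called higher and 0 lower, with a median log2 fold change of 1.98, and the summed level of the list went from 729.9 (549 to 816) to 3349.8 (1982 to 8557) CPM. CFB, the factor B of the alternative pathway, rose from 93.6 (52.9 to 163) to 1227 (606 to 3809) CPM, a log2 fold change of 3.93 (SE 0.40, adjusted p = 6.1e-05). The sorted cultures held both ends of its passage 2 range, donor 4 with 606 and donor 8 with 3809 CPM. The serine protease C2, its counterpart in the classical pathway, rose from 19.9 (10.9 to 32.4) to 289 (193 to 736) CPM, a log2 fold change of 4.08 (SE 0.31, adjusted p = 1.2e-05). CFD, the adipsin that cleaves factor B, rose from 4.10 (0.919 to 6.14) to 14.9 (6.14 to 83.0) CPM, a log2 fold change of 2.33 (SE 0.44, adjusted p = 0.0018). Clusterin (CLU), an inhibitor of the terminal complex, rose from 196 (177 to 277) to 465 (339 to 958) CPM. Among FAPs with the phase label G1 alone its log2 fold change was 0.03, against 1.22 over all FAPs.

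Most interferon-stimulated genes rose as well. Of 26 tested, 21 were called higher and 0 lower, with a median log2 fold change of 1.87. The summed level of the list was 335 (268 to 349) CPM at passage 0 and 1980.0 (813 to 2907) CPM at passage 2, where donor 2 stood at 813 CPM and the other 5 donors at 1794 to 2907 CPM. ISG15, a ubiquitin-like modifier, rose from 19.1 (11.4 to 31.9) to 429 (137 to 574) CPM, a log2 fold change of 4.22 (SE 0.14, adjusted p = 1.5e-07). IFI27, an interferon-induced membrane protein, rose from 2.44 (1.66 to 5.25) to 426 (70.7 to 850.1) CPM, a log2 fold change of 7.20 (SE 0.41, adjusted p = 2.7e-06). IFI6, a mitochondrial protein, lay between 6.92 and 13.9 CPM at passage 0 and rose to 266 (112 to 673) CPM, a log2 fold change of 4.87 (SE 0.42, adjusted p = 2.2e-05). Donor 2 was lowest at passage 2 for all 3 of these genes, with 137, 70.7 and 112 CPM. MX2, an antiviral GTPase, had 2 UMIs at passage 0 and 504 at passage 2. Genes of antigen presentation were called higher for 6 of 9 tested and lower for 0, with a median of 1.37. B2M, the light chain of class I, rose from 938 (777 to 1114) to 2623 (1923 to 3053) CPM. BOLA, a class I heavy chain, rose from 273 (143 to 358) to 1538 (994 to 2443) CPM, a log2 fold change of 2.67 (SE 0.16, adjusted p = 1.6e-06). Reads of near-identical class I genes may be shared, so the level of BOLA is uncertain. The immunoproteasome subunit PSMB9 rose from 34.8 (26.2 to 43.0) to 169 (134 to 223) CPM, and the loading factor TAPBP had log2 fold change 1.71.

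Chemokines and cytokines moved both ways, with 8 called higher and 7 lower of 23 tested and a median log2 fold change of -0.54. CCL5, which draws T cells and monocytes, rose from 2.82 (2.30 to 6.15) to 784 (124 to 1237) CPM, a log2 fold change of 7.79 (SE 0.40, adjusted p = 1.7e-06). Donor 2 was again lowest at passage 2, with 124 CPM against 767 to 1237 CPM in the other 5 donors. CCL26, an eotaxin, rose from 0.725 (0.459 to 2.08) to 58.6 (45.2 to 97.5) CPM, a log2 fold change of 5.90 (SE 0.29, adjusted p = 1.2e-06). CXCL5, a neutrophil chemokine, fell from 8400.5 (4719 to 9095) to 1447 (1351 to 1891) CPM, a log2 fold change of -2.31 (SE 0.12, adjusted p = 8.5e-07). CCL2, the monocyte chemokine, was higher in 6 of 6 donors without passing the fold threshold, at 685 CPM (546 to 1015) at passage 0 and 1282 CPM (1119 to 1361) at passage 2. Of genes that NF-kB induces to feed back on it 5 were called higher and 1 lower of 15 tested, with a median of 0.63. BIRC3, an inhibitor of apoptosis, rose from 18.2 (15.4 to 25.4) to 101 (72.5 to 139) CPM, a log2 fold change of 2.46 (SE 0.09, adjusted p = 1.5e-07). The deubiquitinase TNFAIP3 rose from 22.5 (18.6 to 36.2) to 104 (81.8 to 143) CPM. The NF-kB subunit RELB rose from 14.2 (10.99 to 17.7) to 52.5 (46.2 to 67.0) CPM. VCAM1, an adhesion molecule for leukocytes, rose from 2.74 (0.543 to 5.38) to 20.5 (10.1 to 115) CPM with donor 8 highest (log2 fold change 3.46, SE 0.46, adjusted p = 2.8e-04). SOD2, the mitochondrial superoxide dismutase, was higher in 3 of 6 donors and stood at 1854 CPM (1293 to 2886) at passage 0 and 2133 CPM (1318 to 2764) at passage 2.

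Several smooth muscle and stress fibre genes rose. Of 25 tested genes of contraction and of the serum response factor, 14 were called higher and 0 lower, with a median log2 fold change of 1.37. ACTA2, the smooth muscle actin of myofibroblasts, rose from 33.6 (28.5 to 52.0) to 598 (462 to 1088) CPM, a log2 fold change of 4.14 (SE 0.24, adjusted p = 2.7e-06). TAGLN, which binds actin filaments, rose from 4.33 (1.41 to 10.9) to 76.0 (68.6 to 96.1) CPM, a log2 fold change of 4.06 (SE 0.38, adjusted p = 3.4e-05). ACTG2, an enteric actin, rose from 5.48 (4.24 to 10.6) to 137 (84.8 to 238) CPM. CNN1, calponin, rose from 2.68 (1.22 to 5.61) to 55.5 (18.0 to 77.3) CPM. MYLK, the myosin light chain kinase, rose from 3.83 (3.44 to 11.02) to 77.2 (40.7 to 149.8) CPM. CALD1, caldesmon, rose from 724 (652 to 828) to 2287 (1896 to 2506) CPM at log2 fold change 1.63. LMOD1, which seeds actin filaments, rose from 0.755 (0.230 to 0.995) to 20.5 (17.1 to 23.3) CPM. In pooled SMMCs at passage 0, ACTA2 was at 3336 and CNN1 at 313 CPM, and no cell of the 6 compared donors carried the SMMC label at passage 2. Of 22 tested targets of YAP and TEAD, the transcription factors of cell stretch, 6 were called higher and 0 lower, with a median of 0.81. ANKRD1, a nuclear ankyrin protein, rose from 1.10 (0.682 to 1.81) to 84.2 (22.9 to 136) CPM, a log2 fold change of 6.12 (SE 0.34, adjusted p = 2.2e-06). CRIM1, a membrane protein that binds BMPs, rose from 7.39 (5.29 to 12.2) to 74.5 (66.5 to 100.2) CPM. CCN1, an adhesive relative of CCN2, rose from 229 (132 to 280.4) to 528 (481 to 700.4) CPM.

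More FAPs carried the deposited phase label G1 at passage 2, and most genes of DNA replication and mitosis fell. The share of FAPs labelled G1 was 13.7% to 26.8% (median 23.4%) at passage 0 and 49.3% to 92.2% (median 75.7%) at passage 2, lowest in donor 4 and highest in donor 8. It was higher in 6 of 6 donors, by 51.9 percentage points on average (SD 16.0, n = 6), with p = 0.031 in a two-sided exact permutation test over the donor pairs, the smallest that 6 pairs allow. The share labelled S went from 37.7% to 48.0% at passage 0 to 3.79% to 28.3% at passage 2, and that labelled G2/M from 32.0% to 38.8% to 4.02% to 22.4%. The phase labels were set from cell cycle genes of the same cells, so they and the gene counts are not independent, and they were not set again at equal depth, the median UMIs per cell being higher at passage 2. Of 43 tested genes of DNA replication 36 were called lower and 0 higher, with a median log2 fold change of -1.55. Of 53 genes of mitosis and the spindle 48 were called lower and 0 higher, with a median of -1.53. PCNA, the sliding clamp of replication, fell from 232 (218 to 262) to 78.1 (47.1 to 127) CPM, a log2 fold change of -1.65 (SE 0.17, adjusted p = 5.1e-05). CDC20, the activator of the anaphase-promoting complex, fell from 126 (119.7 to 139) to 28.7 (11.6 to 54.0) CPM, a log2 fold change of -2.29 (SE 0.27, adjusted p = 1.3e-04). ORC1, which marks replication origins, fell from 15.9 (15.2 to 21.1) to 3.36 (0.969 to 6.41) CPM. CCNB1, the mitotic cyclin, fell from 100.2 (94.3 to 107) to 21.2 (11.2 to 43.8) CPM. In both lists donor 8 had the lowest summed level at passage 2 and donor 4 the highest, the reverse order of their G1 shares.

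**Figure D3:**
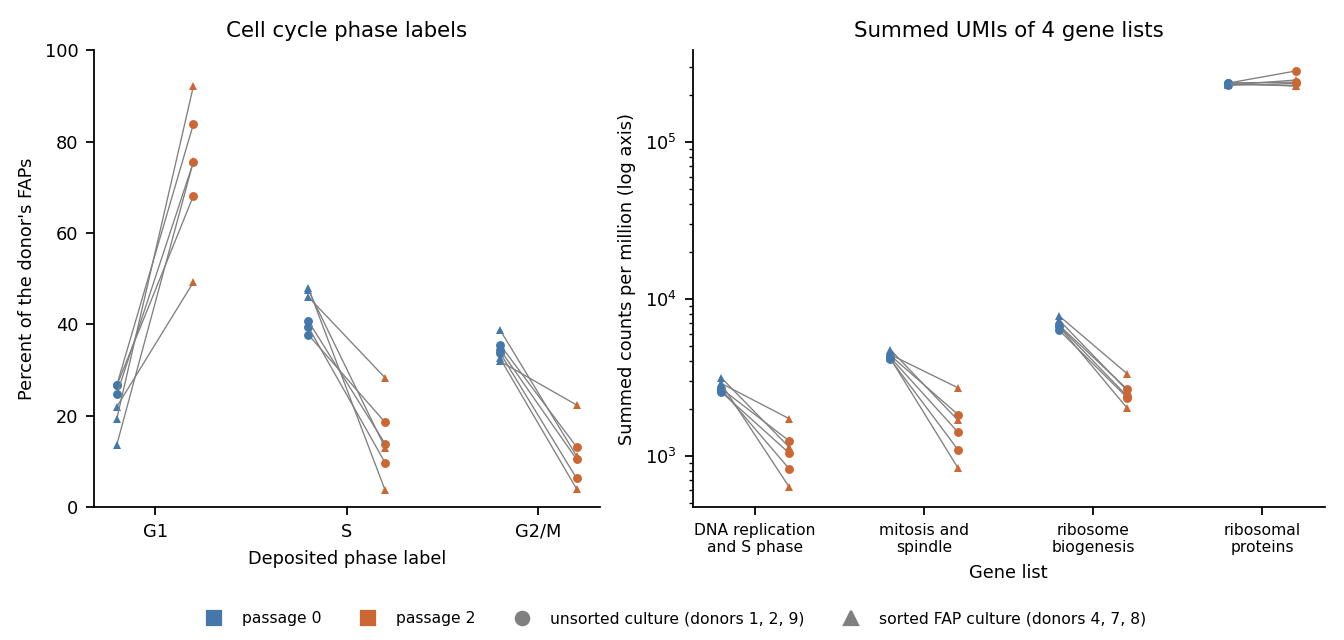
Left, percent of each donor's FAPs with each deposited phase label; right, summed level of 4 gene lists in CPM (log axis), each line joining a donor's passage 0 point (blue) and passage 2 point (orange), with circles for unsorted and triangles for sorted cultures. Lines for G1 rise and lines for S, G2/M and the first 3 lists fall in all 6 donors, while ribosomal proteins stay near their passage 0 level.

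Since the phases differed so much, the comparison was repeated with FAPs labelled G1 alone. It called 2013 of 10398 tested genes (19.4%), 1137 higher (10.9%) and 876 lower (8.42%). The collagen, proteoglycan and interferon lists had medians of 2.14, 2.82 and 1.29 there. COL1A1 had log2 fold change 3.84 among G1 cells and LUM 3.47. Most replication and mitosis genes fell among G1 cells too, with 28 of 38 and 40 of 49 called lower. The phase labels were set from cell cycle genes of the same cells, so these counts are no independent result. The part of cycling cells that carry the label G1 was not tested. CDKN1A, an inhibitor of cyclin-dependent kinases, stood at 118 CPM (83.8 to 159) at passage 0 and 141 CPM (104 to 163) at passage 2 over all FAPs (log2 fold change 0.19, not called) and had -1.28 among G1 cells alone.

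Of 16 tested D-type cyclins and inhibitors of cyclin-dependent kinases, 3 were called higher and 0 lower, against 13.4% and 10.2% of all tested genes, with a median of 0.14 and of -0.08 among G1 cells alone. CDKN1C, the inhibitor p57 of quiescent cells, rose from 2.43 (1.42 to 2.98) to 27.9 (16.4 to 40.4) CPM, a log2 fold change of 3.55 (SE 0.22, adjusted p = 2.3e-06). CCND1, cyclin D1, rose from 101 (77.1 to 136) to 302 (223 to 391) CPM, a log2 fold change of 1.49 (SE 0.12, adjusted p = 9.0e-06), and among G1 cells alone it had 0.93, under the fold threshold. CDKN2B, the inhibitor p15, rose from 0.145 (0.0882 to 0.230) to 0.810 (0.636 to 1.14) CPM. Of 19 tested growth arrest genes 3 were called higher and 0 lower, a share of higher calls near the 13.4% over all tested genes, with a median of 0.40 over all FAPs and of -0.34 among G1 cells alone, where 2 of the 3 calls were lost and CCNG1, cyclin G1, was called lower (-1.15, against -0.44 over all FAPs). GADD45G, a stress and differentiation gene, rose from 18.1 (15.3 to 21.1) to 129 (73.5 to 177) CPM. Most genes that build ribosomes fell, 33 of 45 tested being called lower and 0 higher, with a median of -1.19 and of -1.08 among G1 cells. NCL, nucleolin, fell from 1666 (1533 to 1992) to 464 (381 to 660.4) CPM, a log2 fold change of -1.85 (SE 0.07, adjusted p = 1.5e-07). NPM1, nucleophosmin, fell from 646 (549.8 to 739) to 154 (122 to 262) CPM. LYAR, a nucleolar factor of early ribosomal RNA processing, fell from 173 (165 to 223) to 32.9 (18.7 to 60.8) CPM. Of the 76 ribosomal proteins themselves neither edgeR nor DESeq2 called any, with a median of 0.02 and of -0.13 among G1 cells alone, although at an unadjusted p below 0.05 edgeR had 21 higher and 20 lower. RPS12, a small subunit protein, stood at 7776 CPM (7677 to 7923) at passage 0 and 9485 CPM (8317 to 10866) at passage 2.

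Of the metallothioneins MT1A, MT1E, MT2A and MT3, all 4 were called lower. MT2A, which binds zinc and is induced by metals and glucocorticoids, fell from 12050.1 (11186 to 16692) to 1616 (659 to 2232) CPM, a log2 fold change of -3.18 (SE 0.22, adjusted p = 7.4e-06). MT1E, a symbol that 2 features carry, fell in the more abundant one from 923 (370.3 to 1080.2) to 60.8 (26.3 to 139) CPM, a log2 fold change of -3.56 (SE 0.33, adjusted p = 3.3e-05). Of the 13 tested genes of metal handling 5 were called lower and 0 higher, with a median of -0.38, which was -0.66 among G1 cells alone. TFRC, the transferrin receptor that takes up iron, fell from 12.7 (12.4 to 16.2) to 2.49 (1.03 to 3.05) CPM, a log2 fold change of -2.55 (SE 0.17, adjusted p = 1.9e-06), while FTH1, the iron store ferritin, was not called at 13544 CPM (7851 to 15801) at passage 0 and 11982 CPM (7254 to 14295) at passage 2. Genes of NRF2 and redox defence showed 3 called higher and 6 lower of 24 tested, with a median of -0.29. TXNRD1, thioredoxin reductase, fell from 222 (173 to 238) to 68.8 (56.5 to 87.4) CPM, a log2 fold change of -1.65 (SE 0.11, adjusted p = 2.4e-06). GCLC, which starts glutathione synthesis, fell from 41.0 (20.2 to 65.4) to 14.0 (9.55 to 14.8) CPM. GPX1, a glutathione peroxidase, rose from 104 (94.6 to 125) to 336 (302 to 393) CPM, a log2 fold change of 1.67 (SE 0.08, adjusted p = 2.7e-07). Of 16 tested glucocorticoid response genes 5 were called higher and 2 lower, with a median of 0.34. SGK1, a kinase of this response, rose from 12.1 (9.88 to 16.6) to 34.7 (27.2 to 47.2) CPM. CRISPLD2, a secreted protein, rose from 57.3 (48.9 to 83.5) to 204 (117 to 346) CPM, the opposite direction to MT2A.

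Of 24 glycolysis genes 1 was called higher and 5 lower, with a median of -0.36. Both directions together were near the 23.6% called over all tested genes, of which 13.4% were higher and 10.2% lower. At an unadjusted p below 0.05 edgeR had 4 glycolysis genes higher and 16 lower. LDHA, lactate dehydrogenase, fell from 617 (492 to 715) to 258 (175 to 332) CPM, a log2 fold change of -1.25 (SE 0.14, adjusted p = 5.4e-05). SLC2A1, the basal glucose transporter, fell from 13.4 (9.73 to 20.4) to 5.69 (2.96 to 8.45) CPM, and GAPDH was not called at 2379.9 CPM (2076 to 2541) at passage 0 and 2300.1 CPM (1771 to 2582) at passage 2. The gene that rose was ALDOC, an aldolase, from 3.14 (1.63 to 5.29) to 36.8 (21.4 to 46.2) CPM, a log2 fold change of 3.37 (SE 0.13, adjusted p = 1.8e-07). None of the 13 mitochondrially encoded genes was called by edgeR or DESeq2, with a median of 0.08 and with 4 higher and 5 lower at an unadjusted p below 0.05 by edgeR. Of 68 nuclear genes of oxidative phosphorylation 2 were called lower, with a median of -0.20. These were CYC1 and UQCRQ, both subunits of complex III, at log2 fold changes -1.17 and -1.13. In hypoxia response genes 4 were called higher and 3 lower of 17 tested, with a median of 0.19.

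Of 24 cholesterol synthesis genes 1 was called higher and 0 lower, with a median of -0.18, and HMGCS1, at the entry of the pathway, stood at 809 CPM (588 to 1014) at passage 0 and 543 CPM (297 to 568) at passage 2 without a call. Of 13 fatty acid synthesis genes 4 were called higher and 1 lower, with a median of 0.63. SREBF1, the transcription factor of this pathway, rose from 30.6 (21.5 to 39.5) to 114 (92.7 to 121) CPM, a log2 fold change of 1.85 (SE 0.08, adjusted p = 2.4e-07). SCD, a desaturase, rose from 119 (91.0 to 159.7) to 355 (251 to 491) CPM. ACSS2, which makes acetyl-CoA from acetate, rose from 3.57 (0.995 to 4.64) to 21.6 (11.2 to 25.6) CPM. SCD5, another desaturase, fell from 3.38 (2.01 to 3.71) to 0.269 (0.165 to 0.627) CPM, and at passage 0 was at 2.98 in pooled FAPs against 77.6 in glial cells. In adipogenic and lipid handling genes 8 were called higher and 2 lower of 25 tested, with a median of 0.28. Besides leptin and adipsin, APOD, an apolipoprotein of quiescent fibroblasts, rose from 3.74 (2.90 to 6.00) to 40.5 (12.6 to 65.4) CPM, a log2 fold change of 3.12 (SE 0.29, adjusted p = 3.0e-05), and CEBPD, an early adipogenic factor, was not called at 1286 CPM (1043 to 1402) at passage 0 and 1341 CPM (1039 to 1485) at passage 2. FABP5, a fatty acid carrier, was higher in 5 of 6 donors with overlapping ranges (log2 fold change 1.09, SE 0.27, adjusted p = 0.007), and its call was lost without donor 1 (0.93), without donor 9 (0.94) and among G1 cells (0.69). Retinoid genes showed 7 called higher and 2 lower of 15 tested, with a median of 0.31. CRABP2, which carries retinoic acid to its receptor, rose from 17.1 (12.1 to 22.7) to 253 (208 to 348) CPM, a log2 fold change of 4.01 (SE 0.11, adjusted p = 5.2e-08). RARRES2, the adipokine chemerin, rose from 22.6 (16.0 to 28.2) to 204 (147 to 872) CPM. The retinol carrier RBP4 fell from 661 (527 to 718) to 209 (174 to 378) CPM, a log2 fold change of -1.45 (SE 0.12, adjusted p = 9.8e-06).

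Stress genes of the endoplasmic reticulum and of amino acid supply were called at shares below or near the 23.6% of all tested genes. Of 24 chaperone genes 1 was called higher and 2 lower, with a median of 0.19. The higher gene was CREB3L1, a membrane-bound transcription factor of collagen secretion, which rose from 75.9 (50.1 to 144) to 397 (278 to 502) CPM, a log2 fold change of 2.26 (SE 0.29, adjusted p = 2.3e-04). HSPA5, the chaperone BiP, fell from 715 (651 to 790.1) to 310.4 (269 to 482) CPM, a log2 fold change of -1.09 (SE 0.11, adjusted p = 1.9e-05), a call lost in sorted cultures alone (-0.86). Of 25 genes of the ATF4 response 3 were called higher and 3 lower, with a median of 0.03. NUPR1, a stress-induced chromatin protein, rose from 247 (150.1 to 301) to 1084 (629.5 to 1666) CPM, a log2 fold change of 2.30 (SE 0.16, adjusted p = 6.0e-06). PYCR1, which makes proline, rose from 33.6 (24.2 to 38.0) to 76.9 (46.2 to 93.7) CPM and was not called in sorted cultures alone (0.80). SHMT2, which feeds carbon units from serine, fell from 135 (113 to 154) to 55.8 (33.2 to 70.2) CPM and was not called in unsorted cultures alone (-0.96). Immediate early genes, which tissue handling also induces, showed 8 called higher and 4 lower of 25 tested, with a median of 0.62, and FOS rose from 10.5 (7.20 to 15.1) to 56.9 (44.3 to 88.5) CPM, a log2 fold change of 2.52 (SE 0.12, adjusted p = 4.7e-07). Tubulin and other cytoskeletal genes showed 1 called higher and 2 lower of 17 tested, against 13.4% and 10.2% of all tested genes. Their median was -0.31, and -0.59 in sorted cultures alone. TMSB10, which binds actin monomers, rose from 3899.7 (3164 to 4132) to 7733 (6490.1 to 8828) CPM, with log2 fold change 1.03, which came under the threshold among G1 cells (0.85) and without donor 1 (0.98), donor 2 (1.00) or donor 9 (1.00), and VIM, vimentin, was not called at 12149 CPM (10030.5 to 13596) at passage 0 and 14555 CPM (11463 to 17693) at passage 2.

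Among growth factor systems, the PDGF family showed 4 called higher and 1 lower of 7 tested. The ligand PDGFC rose from 0.366 (0.177 to 0.916) to 4.50 (3.13 to 5.48) CPM, a log2 fold change of 3.28 (SE 0.24, adjusted p = 2.7e-06). The receptor PDGFRB rose from 7.66 (5.70 to 8.69) to 19.2 (14.2 to 20.9) CPM, a log2 fold change of 1.32 (SE 0.07, adjusted p = 5.1e-07). PDGFB, a ligand of endothelium, fell from 168 UMIs to 7, and its level at passage 0 was 2.03 CPM in pooled FAPs and 293 in VECs. Of FGF and HGF signalling genes 2 were called higher and 3 lower of 13 tested, against 13.4% and 10.2% of all tested genes. The median was -0.07. It was -0.89 in thinned sums and -1.01 among G1 cells alone, where 10 members were tested. FGF10, a ligand made by mesenchyme for epithelium, rose from 10.4 (8.19 to 12.6) to 60.8 (47.6 to 99.9) CPM, a log2 fold change of 2.64 (SE 0.16, adjusted p = 1.9e-06). FGF2 fell from 22.0 (14.6 to 50.7) to 6.95 (3.53 to 9.57) CPM, a log2 fold change of -1.92 (SE 0.36, adjusted p = 0.0017), and FGF7 was lower in 6 of 6 donors without passing the fold threshold, at 94.9 CPM (69.0 to 106) at passage 0 and 47.6 CPM (26.8 to 67.4) at passage 2. In the IGF axis 4 genes were called higher and 4 lower of 11 tested, with a median of 0.09, which turned to -0.57 in thinned sums and -0.58 without donor 2. IGFBP6, a binding protein that prefers IGF2, rose from 118 (92.5 to 131) to 459 (359 to 957) CPM, a log2 fold change of 2.25 (SE 0.20, adjusted p = 2.8e-05). IGFBP5 fell from 19.5 (11.7 to 30.3) to 1.77 (0.377 to 4.37) CPM, a log2 fold change of -3.48 (SE 0.48, adjusted p = 3.2e-04). The ligand IGF2 fell from 5.21 (3.67 to 10.4) to 0.342 (0.247 to 2.74) CPM. IGFBP1 had 158 UMIs at passage 0 and none at passage 2, at least 99.8-fold lower with the same floor, and at passage 0 it was at 1.97 CPM in pooled FAPs against 55.4 in SCs. Of EGF family genes 2 were called higher and 1 lower of 6 tested. The higher call of NRG1, whose donor ranges overlapped, was lost among G1 cells alone (0.34, adjusted p = 0.57). The receptor ERBB2 rose from 5.56 (5.12 to 6.50) to 12.1 (9.54 to 13.3) CPM, with log2 fold change 1.05 and 0.82 among G1 cells and 1.00 without donor 1, no call in either, while AREG, a ligand, was lower in 5 of 6 donors with overlapping ranges (log2 fold change -1.01, SE 0.39, adjusted p = 0.043), a call that was lost without any 1 of donors 1, 2, 4, 7 and 8. At passage 0 AREG was at 1.26 CPM in pooled FAPs against 24.6 in SCs.

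In the TGF-beta and BMP family 12 genes were called higher and 3 lower of 29 tested, with a median of 0.93. BMP4, a ligand, rose from 12.6 (8.73 to 19.1) to 73.7 (52.4 to 88.9) CPM, a log2 fold change of 2.44 (SE 0.16, adjusted p = 3.0e-06). CHRDL1, an antagonist of BMP ligands, rose from 4.52 (3.44 to 6.98) to 26.8 (10.1 to 48.8) CPM, a log2 fold change of 2.42 (SE 0.21, adjusted p = 1.7e-05). BMP7, another ligand, fell from 106 UMIs to 13 and at passage 0 was at 1.17 CPM in pooled FAPs against 20.0 in LECs. Of Wnt genes 6 were called higher and 1 lower of 14 tested, with a median of 0.70, which was 1.21 in thinned sums and 1.06 among G1 cells alone. FZD1, a receptor, rose from 7.41 (4.43 to 11.6) to 106 (84.6 to 122) CPM, a log2 fold change of 3.78 (SE 0.14, adjusted p = 2.2e-07). DKK3, a secreted relative of Wnt antagonists, rose from 36.3 (32.4 to 43.8) to 167 (119 to 190.0) CPM. AXIN2, a target gene of the pathway, rose from 0.332 (0.172 to 0.706) to 1.79 (1.32 to 3.05) CPM, a log2 fold change of 2.39 (SE 0.20, adjusted p = 6.8e-06). SFRP4, a secreted antagonist, stood at 1083 CPM (573 to 1973) at passage 0 and 1857 CPM (1056 to 3989) at passage 2, was higher in 6 of 6 donors and was not called. Notch genes showed 2 called higher and 4 lower of 14 tested, with a median of 0.24 over all donors and of -0.44 in sorted cultures alone. The endothelial ligand DLL4 had 98 UMIs at passage 0 and 3 at passage 2, the fringe enzyme MFNG 139 and 1. At passage 0 both were more abundant in VECs, at 128 and 181 CPM, than in pooled FAPs, at 1.13 and 1.62. The receptor NOTCH2 was not called at 23.5 CPM (21.8 to 24.0) at passage 0 and 29.9 CPM (28.0 to 33.9) at passage 2.

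Integrin subunits were called higher for 7 of 15 tested and lower for 1, with a median of 0.64. ITGA1, a collagen receptor subunit, rose from 2.66 (1.68 to 4.29) to 40.0 (30.3 to 46.6) CPM, a log2 fold change of 3.86 (SE 0.13, adjusted p = 9.6e-08). ITGB5, which binds vitronectin, rose from 43.2 (33.8 to 52.4) to 265 (189.8 to 287) CPM, a log2 fold change of 2.61 (SE 0.07, adjusted p = 5.2e-08). ITGA8, a receptor subunit for fibronectin, rose from 0.625 (0 to 0.973) to 7.72 (4.74 to 11.2) CPM. ITGA2, another collagen receptor subunit, had 117 UMIs at passage 0 and 3 at passage 2, and its passage 0 level in CPM was 1.28 in pooled FAPs against 29.8 in VECs. ITGB1, the common beta subunit, was higher in 6 of 6 donors without passing the fold threshold, at 363 CPM (331 to 391) at passage 0 and 496 CPM (449 to 577) at passage 2. Among stromal transcription factors 8 were called higher and 2 lower of 35 tested, with a median of 0.56. PRRX1, a homeobox factor of mesenchyme, rose from 265 (209 to 303) to 657 (387 to 973) CPM, a log2 fold change of 1.28 (SE 0.15, adjusted p = 8.1e-05). MEOX1, a factor linked to fibroblast activation, rose from 11.9 (9.17 to 16.3) to 54.3 (35.8 to 123) CPM. TBX18, a T-box factor of mesenchyme, rose from 10.5 (8.34 to 14.8) to 42.5 (30.0 to 50.4) CPM. The tendon factor MKX rose from 0.814 (0.362 to 1.49) to 36.5 (18.9 to 47.4) CPM, a log2 fold change of 5.35 (SE 0.25, adjusted p = 6.6e-07). HOX genes, which record position along the body, had 2 called higher and 1 lower of 17 tested, below the shares over all genes, and a median of 0.29. The lower call, HOXA4 (-1.10, lower in 5 of 6 donors with overlapping ranges), was lost without donor 1, 2 or 8 and in sorted cultures alone, and HOXC5 (1.51) lost its call among G1 cells alone. HOXC6 rose from 22.3 (21.4 to 23.3) to 49.2 (39.3 to 65.4) CPM, and HOXA9 was not called at 29.6 CPM (28.4 to 32.3) at passage 0 and 22.0 CPM (20.1 to 24.8) at passage 2.

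Within 1 kind of culture, with 3 donors, some calls were lost. In sorted cultures alone these included FBN1 (0.83), SERPINE2 (-0.75), ERBB2 (0.93), IGF2 (-2.87), FABP5 (0.50), TMSB10 (0.83) and SAA3 (2.51), and in unsorted cultures alone S100A12 (-3.22), TNNT1 (-0.91) and AREG (-0.44). PDGFRA was called higher in sorted cultures alone (1.12) and among G1 cells alone (1.05), and CCL2 (1.11), SFRP4 (1.25) and FGF7 (-1.06) were called in sorted cultures alone.

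The change was also compared between sorted and unsorted cultures. The difference of change was tested in 11971 genes, of which 1303 had an unadjusted p below 0.05 and 18 (0.15%) were called, 11 with the higher change in sorted cultures and 7 with the lower. Among them FGF2 fell in both kinds of culture, from 18.4, 14.6 and 16.7 to 7.59, 7.62 and 9.55 CPM in the 3 sorted and from 50.6, 25.5 and 37.5 to 5.90, 3.54 and 6.34 CPM in the 3 unsorted ones, a difference in log2 fold change of 1.83, SE 0.19, adjusted p = 0.017. LTBP3, which holds latent TGF-beta in the matrix, went from 8.30, 7.10 and 11.5 to 26.8, 19.6 and 34.6 CPM in sorted and from 10.7, 12.4 and 13.2 to 10.7, 12.1 and 13.2 CPM in unsorted cultures (difference 1.59, SE 0.13, adjusted p = 0.011). GAS7, a growth arrest gene, went from 7.31, 7.38 and 13.7 to 27.1, 27.2 and 37.4 CPM and from 12.5, 16.9 and 18.7 to 11.5, 18.5 and 15.6 CPM (difference 1.81, SE 0.17, adjusted p = 0.013), and F2R, the thrombin receptor, from 14.3, 16.3 and 13.8 to 10.7, 10.5 and 13.4 CPM and from 12.6, 15.4 and 17.4 to 2.89, 4.89 and 2.94 CPM (difference 1.72, SE 0.25, adjusted p = 0.048). MYH10, nonmuscle myosin IIB, rose more in unsorted cultures, from 50.5, 50.4 and 53.0 to 277, 307 and 273 CPM, than in sorted ones, from 67.6, 58.4 and 53.1 to 167, 148 and 142 CPM (difference -1.12, SE 0.11, adjusted p = 0.013). PRSS2, a trypsinogen, already differed at passage 0, before sorting, at 0.902, 0.916 and 0.768 CPM in donors 4, 7 and 8 and 8.72, 6.51 and 8.20 CPM in donors 1, 2 and 9, and stood at 0.340, 0.411 and 0.910 and 39.6, 46.8 and 46.9 CPM at passage 2 (difference -3.18, SE 0.42, adjusted p = 0.037). Of the 18 genes 9 had ranges that did not overlap between these sets of donors at passage 0, as did 1779 of all 11971 tested (14.9%), and 12 did at passage 2, against 2029 (16.9%). Sorting, coating of the vessel and the donors themselves cannot be told apart here, and without donor 1, 7 or 9 edgeR called no difference, with 820, 1096 and 894 genes at an unadjusted p below 0.05, against 18 called with all donors, 3 without donor 2, 74 without donor 4 and 88 by DESeq2 with all donors.

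SCs passed through the same libraries, and their change was set against that of FAPs. SC sums came from the unsorted cultures of donors 1, 2 and 9 and from cultures sorted for SCs, on laminin-521, of donors 5 (a female calf), 6 (an adult male) and 10 (a male calf), with 1492 cells at passage 0 and 3816 at passage 2. In the sorted cultures cell type, donor, sort and coating cannot be told apart. Each donor and cell type was its own block, so FAPs and SCs from the same culture of donor 1, 2 or 9 were not paired. The difference of change was called for 1463 of 11787 tested genes (12.4%), with 1016 (8.62%) having the higher log2 fold change in FAPs and 447 (3.79%) in SCs. Most complement genes parted from those of SCs, with 10 of 16 called with the higher change in FAPs, and median log2 fold changes in this fit of 2.02 in FAPs and 0.05 in SCs. CFB had log2 fold change -0.08 in SCs in this fit (difference 4.06, SE 0.94, adjusted p = 0.0062), and 3.93 in FAPs in the separate fit of FAPs alone. Of interferon-stimulated genes 15 of 26 were called with the higher change in FAPs, and CCL5 had 2.23 in SCs (difference 5.58, SE 0.85, adjusted p = 5.9e-04). CLEC12B had 2.35 in SCs (difference 7.40, SE 1.41, adjusted p = 0.0021), and in sums thinned to equal UMI totals the difference was 4.35 and not called (adjusted p = 0.097). The acute phase gene LCN2 went in SCs from 5.77 (1.87 to 101) to 0 (0 to 0.0309) CPM and in FAPs from 0.600 (0.308 to 1.91) to 0.0220 (0 to 0.0857) CPM (difference 5.82, SE 1.38, adjusted p = 0.0053). The serum amyloid genes SAA3 and M-SAA3.2 rose in FAPs, SAA3 with overlapping ranges, at log2 fold changes 3.16 and 5.72, and differed from SCs by 5.83, SE 1.90, adjusted p = 0.034 and by 6.05, SE 1.19, adjusted p = 0.0027. They are near-identical copies that can share reads, so the split between them is uncertain. The difference for SAA3 was not called without donor 2, 6, 8 or 10 (adjusted p = 0.063 to 0.079), and that for LCN2 was not called without donor 5 (3.64, adjusted p = 0.067).

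For COL1A2 no difference between the cell types was called, with log2 fold change 3.60 in SCs and a difference of 0.16, SE 0.44, adjusted p = 0.81. COL3A1 rose more in FAPs (difference 1.90, SE 0.37, adjusted p = 0.0027), as did LUM (difference 1.92, SE 0.18, adjusted p = 2.7e-05). The 6 genes named in the other direction were the myogenic genes TNNI1, MYMK and TNNT1 and the non-myogenic genes DKK2, CLDN5 and IL17B. Where a gene had no UMI in a group the fitted difference depends on the prior count and is no bound. TNNI1, a slow troponin, went from 0 in all 6 donors to 8.99 (2.47 to 26.1) CPM in SCs and from 0 (0 to 0.0884) to 0.124 (0.0428 to 0.238) CPM in FAPs (difference -7.23, SE 2.45, adjusted p = 0.047), and MYMK, the fusion protein myomaker, from 0 in all 6 donors to 16.9 (2.74 to 41.1) CPM and from 0 (0 to 0.0759) to 0.302 (0.128 to 0.353) CPM (difference -7.14, SE 2.38, adjusted p = 0.044). Both calls rest on SC sums without a UMI at passage 0 and on few UMIs in FAPs. They were lost when any 1 of several donors was left out, with adjusted p between 0.053 and 1. Some of these genes also rose in FAPs at low levels. MYOG, the myogenic factor myogenin, rose from 0.101 (0 to 0.379) to 3.06 (2.75 to 3.47) CPM, a log2 fold change of 4.35 (SE 0.43, adjusted p = 1.8e-05). At passage 2 its level in CPM was 2.86 in pooled FAPs and 119 in SCs, that of ACTA1, skeletal actin, was 2.33 and 83.8, and that of TNNC2, a fast troponin, 5.17 and 293. The part of free RNA in these values was not tested. NCAM1, an SC marker, fell in FAPs from 7.22 (5.23 to 8.41) to 1.09 (0.659 to 1.42) CPM and had 1.02 in SCs (difference -3.66, SE 0.48, adjusted p = 1.9e-04). Of replication and mitosis genes, 0 of 43 and 0 of 53 were called different by edgeR and 0 also by DESeq2. At an unadjusted p below 0.05 edgeR had 0 and 1. The medians in this fit were -1.51 and -1.49 in FAPs and -1.02 and -1.05 in SCs. The median differences were -0.42 and -0.41, so the lack of calls does not show that the change was equal. Of 16 D-type cyclins and kinase inhibitors 3 were called with the higher change in SCs and 0 in FAPs, and of 19 growth arrest genes 6 and 1. Among metallothioneins MT2A fell further in SCs, with log2 fold change -5.17 (difference 2.04, SE 0.49, adjusted p = 0.0073).

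**Figure D4:**
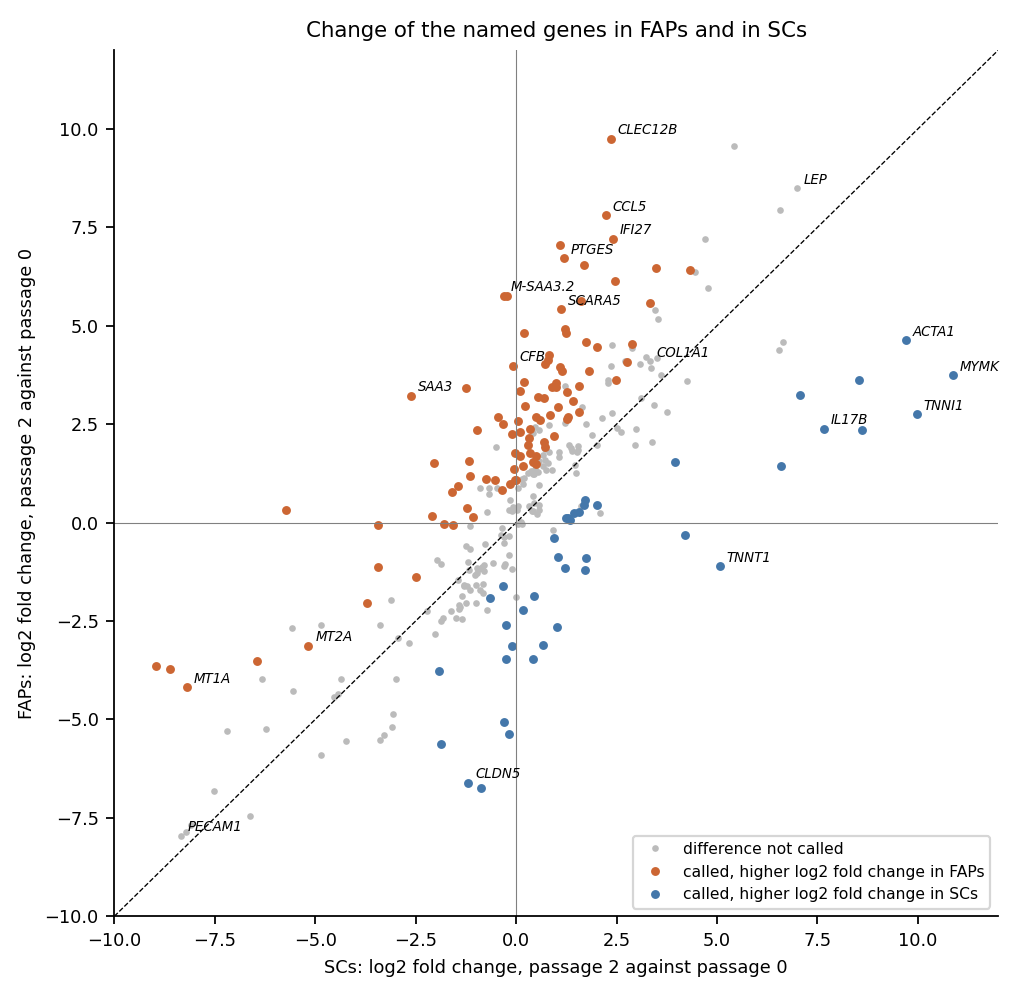
Log2 fold change from passage 0 to passage 2 of the named genes in SCs (horizontal axis) and in FAPs (vertical axis), with the dashed line marking equal change; orange points had the higher log2 fold change in FAPs and blue points in SCs by the test of the difference, and grey points were not called. CCL5 with 2.23 in SCs lies far above the line and MYMK far below it.

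The other libraries of the series place these changes. Means over the same 6 donors are given for muscle, passage 0, passage 2, passage 5 and passage 8 in turn, and the muscle sums are shallow, at 314002 to 706261 UMIs a donor. COL1A1 was at 2637, 575, 9585, 19212 and 10770.1 CPM, with donors between 1410.2 and 4075 in muscle, between 417 and 791 at passage 0 and between 4114 and 16849 at passage 2. SCARA5 was at 433, 2.10, 106, 87.7 and 81.3 CPM and MFAP5 at 3318, 14.5, 259, 340.4 and 373 CPM, both with the highest mean in muscle and the lowest at passage 0. CXCL5 was at 5.17, 7972, 1539.7, 2025 and 2025 CPM and MT2A at 300.2, 13462, 1518, 1736 and 2352 CPM, both with the highest mean at passage 0. CCL5 was at 0.477, 3.33, 767, 599.8 and 1550.1 CPM and LEP at 0, 0.0429, 19.1, 44.3 and 35.7 CPM, both near 0 in muscle and at passage 0. Each timepoint is 1 library, and no test was made across the 5 libraries.

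**Figure D5:**
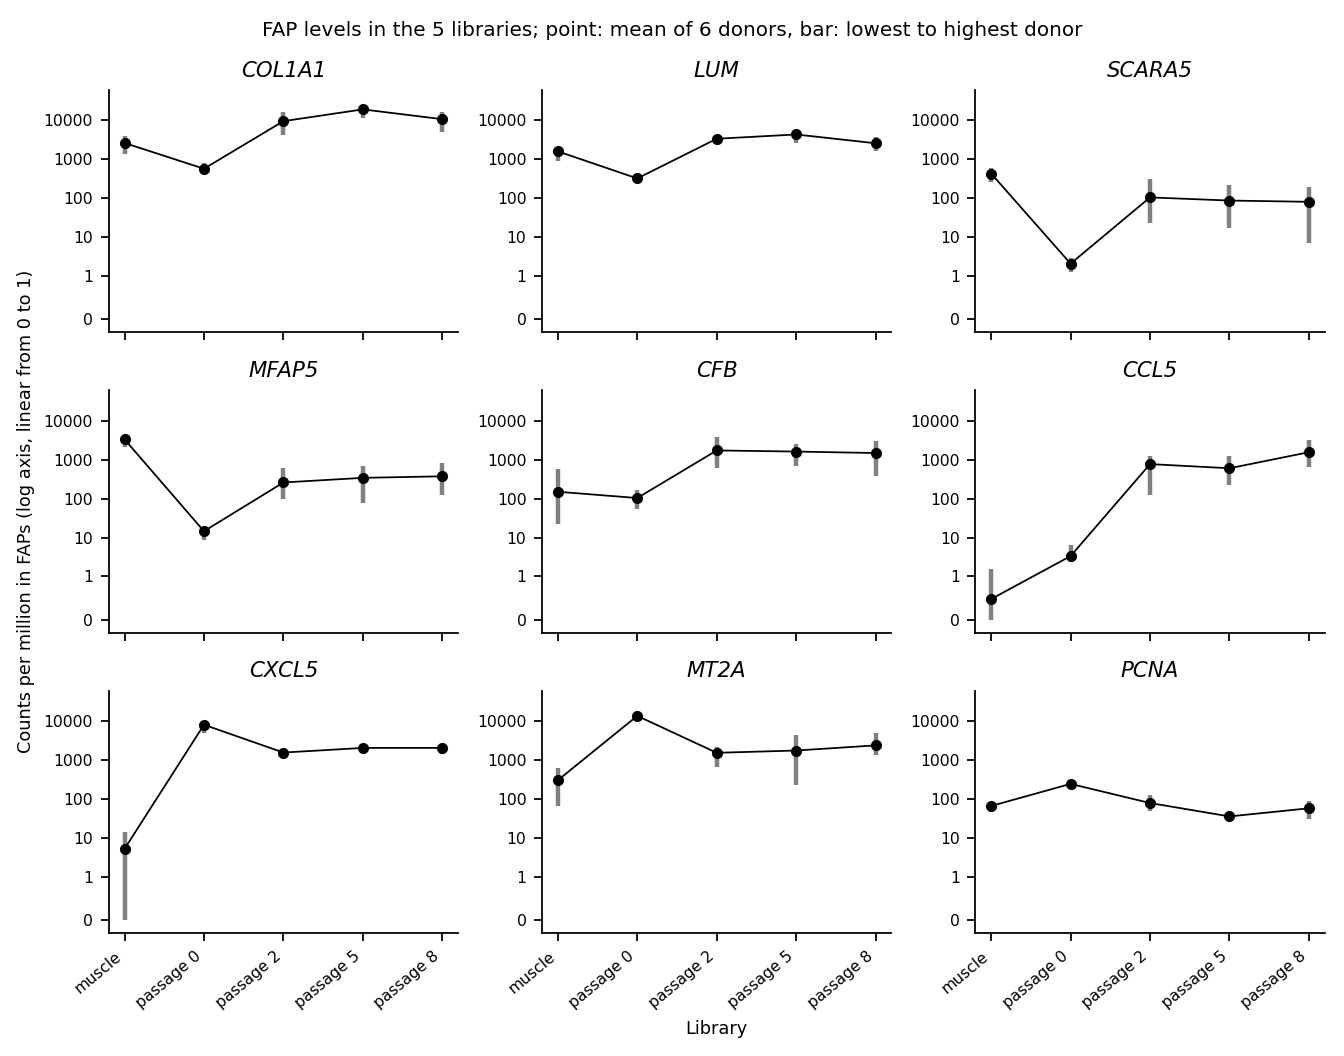
Level of 9 genes in FAPs (vertical log axis, CPM, linear between 0 and 1) in the libraries of muscle and of passages 0, 2, 5 and 8, with the mean of 6 donors as points and the lowest to the highest donor as grey bars. COL1A1, LUM, SCARA5 and MFAP5 are lowest at passage 0 and CXCL5 and MT2A highest.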

How the data were processed

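Single-cell RNA-seq counts were deposited by the authors as raw UMI counts per gene and barcode, 1 table for each library, together with cell tables that hold cell type, genotype, phase and the percent of mitochondrial UMIs as the authors computed them. The authors aligned reads with Cell Ranger 6.0.1 to ARS-UCD 1.2, returned cells to donors with demuxlet, left out barcodes outside 3 median absolute deviations and named clusters. No other doublet caller was run. A combined normalized table was not used, nor were 55 further columns of the cell tables. The members and gene lists were chosen with earlier results of these data known.

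Counts of FAPs were summed per donor and passage (12 sums, at least 10 cells each). edgeR 4.0.16 (R 4.3.3) with TMM factors, filterByExpr and a robust quasi-likelihood fit tested passage 2 against passage 0 with the donor as a block. A gene was called where the adjusted p (Benjamini-Hochberg) was under 0.05 with a log2 fold change over 1 or under -1, and the SE is the log2 fold change over the square root of F. The same fit gave the difference between sorted and unsorted cultures and, with the SC sums of 6 donors, between FAPs and SCs. DESeq2 1.42.0 was an alternative. Donors are separate animals, and the numbers pair the samples because each animal gave cells to both libraries. The deviations of same-numbered sums correlated at 0.234 to 0.385, each highest with its own donor. Genes were named by rule: the 12 called genes with the largest fold change in each direction, 6 of 6 donors in 1 direction and at least 10 CPM, up to 4 called and 2 highest members of each of 56 lists, cell type markers and sort antigens, and 6 genes in each direction of either difference. A few genes that this rule names are not reported here. On simulated data with 200 changed genes of 11439, the paired test recovered 95.5%, 98.6% and 100% of changes of 1.5, 2 and 3 on the log2 scale, with 4 false calls. The simulated sums carried no donor effects, so they do not test the pairing. Of 21880 features 16828 carried a symbol, and 68 symbols stand for several features. Genes below the filter were not tested. Intervals of levels are ranges over donors, and UMI numbers cover counting error only.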

Additional observations from a re-analysis of the deposited data

Results flagged for a closer look

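In 26 of 390 sets of 6 donors, 1 donor lay far from the others in a level or cell measure (by Dixon's ratio of gap to range), where chance alone flags about 1 in 20 sets. That rate does not hold for levels of a few UMIs, such as MFNG and PDGFB at passage 2 and MX2 and GPR65 at passage 0. Donor 8 was the highest at passage 2 in 8 of them, each value set against the next donor. It had CD36 at 4.33 CPM against 0.989 CPM and CFD at 83.0 CPM against 22.6 CPM. It had CLU at 958 CPM against 553 CPM, MGP at 1.82 CPM against 0.548 CPM and PDGFB at 0.228 CPM against 0.0412 CPM. It had RARRES2 at 872 CPM against 342 CPM, SFRP4 at 3989 CPM against 2111 CPM and VCAM1 at 115 CPM against 47.1 CPM. At passage 2 MFNG was highest in donor 2, at 0.0364 CPM, with 0 CPM in the next donor. It had 1 UMI in all there, which fixed its flag in advance. At passage 2 MMP1 was highest in donor 4, at 10.0 CPM, with 2.68 CPM in the next donor. At passage 2 MMP9 was highest in donor 4, at 11.8 CPM, with 2.18 CPM in the next donor. At passage 2 TAGLN was highest in donor 1, at 96.1 CPM, with 77.6 CPM in the next donor. Donor 1 was highest at passage 0 in MX2 (0.153 CPM, next 0), whose 2 UMIs were all in that donor. Donor 2 was highest at passage 0 in ACTG2 (10.6 CPM, next 5.97) and IGFBP1 (3.18 CPM, next 1.99). Donor 4 was highest at passage 0 in CCL5 (6.15 CPM, next 2.98), CNN1 (5.61 CPM, next 2.81) and GPR65 (0.362 CPM, next 0.114). Donor 4 was highest at passage 0 in TGM3 (225 CPM, next 41.6). Donor 7 was lowest at passage 0 in CXCL5 (4719 CPM, next 7642) and STC1 (5.72 CPM, next 14.7). Donor 8 was highest at passage 0 in ACTA1 (0.296 CPM, next 0.0882). Donor 9 was highest at passage 0 in M-SAA3.2 (77.2 CPM, next 21.1), MYLK (11.02 CPM, next 6.06) and SAA3 (84.7 CPM, next 44.3). Donor 9 was highest at passage 0 in TFRC (16.2 CPM, next 12.8).

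A difference of the log2 fold change between sorted and unsorted cultures was called by the interaction test for the genes named by rule. The log2 fold change of sorted minus that of unsorted cultures was above 0 in FGF2 (1.83), GAS7 (1.81), F2R (1.72), MYO5C (1.62), LTBP3 (1.59) and AGPAT3 (1.41). Of these FGF2 and AGPAT3 were lower at passage 2 in both kinds of culture, at -1.005 and -1.002 in sorted and -2.84 and -2.42 in unsorted ones. F2R, with overlapping ranges over all 6 donors, had -0.37 in sorted cultures, which did not pass the test (adjusted p = 0.088), and -2.09 in unsorted ones. MYO5C was higher in both, at 3.07 and 1.45. GAS7 and LTBP3 had 1.73 and 1.58 in sorted and -0.08 and -0.01 in unsorted cultures. The difference was below 0 in PRSS2 (-3.18), LMO7 (-2.09), PLK2 (-1.28), ARMC4 (-1.27), TUFT1 (-1.18) and MYH10 (-1.12). Of these LMO7, ARMC4, TUFT1 and MYH10 were higher at passage 2 in both kinds of culture, at 2.04, 1.35, 1.18 and 1.35 in sorted and 4.13, 2.62, 2.36 and 2.48 in unsorted ones. PRSS2 and PLK2 had -0.67 and -0.23 in sorted and 2.51 and 1.05 in unsorted cultures. For LMO7, PLK2, ARMC4 and MYO5C the ranges of the sorted and unsorted donors were apart at passage 0, before sorting, and overlapped at passage 2. Those of FGF2, AGPAT3, PRSS2, TUFT1 and MYH10 were apart at both passages, and those of GAS7, F2R and LTBP3 at passage 2 alone. The calls of all 12 were lost without donor 1, 7 or 9. A difference between FAPs and SCs was called in the same way. The log2 fold change of FAPs minus that of SCs was above 0 in CLEC12B (7.40), M-SAA3.2 (6.05), HP (6.02), ACKR4 (5.98), SAA3 (5.83) and LCN2 (5.82), the last with a lower median level at passage 2 in both cell types. In sums thinned to equal UMI totals the calls of CLEC12B (4.35), HP (5.01), ACKR4 (6.31) and SAA3 (5.55) were lost, at adjusted p of 0.097, 0.10, 0.063 and 0.056. That of ACKR4 was lost also among G1 cells alone (1.74, adjusted p = 0.87) and without donor 6 (4.28, adjusted p = 0.29). It was below 0 in CLDN5 (-5.43), TNNT1 (-6.17), MYMK (-7.14), TNNI1 (-7.23), DKK2 (-6.26) and IL17B (-5.27). HP, haptoglobin, was not called between passages in FAPs themselves, and its difference rests on the change in SCs.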

How the results depend on the processing

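The count of genes called between passages stayed within 1.5 times its value of 2705 under every alternative run. It was 2671 with no replicate block, 2741 with DESeq2, 2711 with RLE factors, 3583 with no filter on low counts, 2506 with sums thinned to equal UMI totals, 2013 among G1 cells alone, 2875 in unsorted and 2748 in sorted cultures alone, and 2656 to 2837 without 1 donor. Of 299 named genes tested, 241 were called and 203 of them were called in every alternative that could be fitted. Calls of 38 were lost at least once, most often among G1 cells alone (19) and in sorted cultures alone (17, besides PRSS2, which turned there and was not called). Of the uncalled genes 14 gained a call. The direction turned past the threshold, or from a call, for 2 named genes, and in 39 further values of uncalled genes the sign changed below the threshold. CDKN1A, uncalled at 0.19, had -1.28 among G1 cells alone, and PRSS2, at 1.93 over all donors, had -0.71 in sorted cultures alone. Of 783 list medians under the alternatives 44 moved by more than their SD over donors, 17 of them among G1 cells alone.

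The difference between sorted and unsorted cultures depended on the donors. Against 18 genes called, the fit with no replicate block called 3, DESeq2 88, the fit without a filter on low counts 32 and G1 cells alone 40, and leaving out 1 donor gave 0 to 74, with 0 without donor 1, 7 or 9 and 74 without donor 4. RLE factors gave 15 and thinned sums 20. The pairing by donor changed that count and the calls of 3 named genes of the passage comparison, and with no replicate block the differences between FAPs and SCs of MYMK, LCN2, TNNI1 and DKK2 were not called (adjusted p of 0.36, 0.23, 0.17 and 0.051). The difference between FAPs and SCs was called for 675 genes in thinned sums against 1463, with 7760 genes tested in place of 11787, and for 1202 to 1642 without 1 donor, 1367 with no replicate block, 1506 with DESeq2, 1411 with RLE factors and 1058 among G1 cells alone. With no filter it called 1405, 815 with the higher change in FAPs and 590 in SCs, against 1016 and 447. Where no cause is named it was not tested. In the simulated data the test of the sorted and unsorted difference, with 3 donors of each kind, recovered 74.2%, 83.3% and 95.2% of differences of 1.5, 2 and 3 on the log2 scale. It also made 11 false calls there, with 18 genes called in the real data. The simulated sums shared 1 mean profile without donor effects, so they cannot measure how far the calls depend on the donors.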
